A study of Ovis aries with 48 samples.

Results

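MIR21 was followed in fat of female sheep exposed before birth to testosterone or bisphenol A (BPA), library by library. It is 1 of the 4920 features of 4 RNA classes in the deposited tables, where it is listed among the microRNAs, and it was taken by its name. MIR21 was above 0 in 48 of 48 libraries.

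A microRNA is a short RNA that guides a silencing complex to matching sites in messenger RNAs and lowers their output. MIR21 is induced by inflammatory signalling through STAT3 and by TGF-β, represses PDCD4 and SMAD7 among others, and is known as a profibrotic microRNA of heart, kidney and lung. In fat it is found in adipocyte precursors, stromal cells and macrophages, and has been tied to the growth and differentiation of precursors. In the RefSeq annotation of sheep (assembly ARS-UI_Ramb_v3.0) the gene lies within the span of VMP1, a protein-coding gene of autophagy, next to TUBD1. Coordinates are left out, because the sources used here name no build for the deposited tables.

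The T cohort held 8 sheep sampled at 4 sites (fat under the skin, called subcutaneous, and visceral, perirenal and epicardial fat): 4 controls (sheep 098, 131, 132 and 201) and 4 prenatal T sheep (48, 185, 233 and 255). Mothers of prenatal T sheep received 100 mg testosterone propionate (about 1.2 mg/kg) in corn oil by intramuscular injection, 2 times a week from gestational day 30 to 90. The labels give no vehicle for the controls of this cohort. The BPA cohort held 8 other sheep with subcutaneous and visceral fat: 4 controls (902, 908, 924 and 928), whose mothers were injected with corn oil, and 4 BPA sheep (910, 918, 977 and 984). Their mothers received BPA at 0.5 mg/kg/day in corn oil, injected under the skin every day from gestational day 30 to 90. Both cohorts were kept together on a similar maintenance diet. The age of the sheep at sampling was not analysed here. The 12 groups of cohort, depot and treatment held 4 libraries each, from 4 sheep.

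The libraries held 222537 to 1533680 microRNA reads. MIR21 had 104 to 31695 reads (median 964.5), or 0.0300% to 2.77% of the microRNA reads (median 0.135%). The let-7 family took 25.0% to 72.2% of the microRNA reads. Markers of fat cells themselves are protein-coding and were not part of these tables, so the labelled tissue was not checked against them. The library numbers in the labels fall into an early set (up to 48) and a later set. In the 8 groups that held both sets MIR21 was higher in the later set in 4 and lower in 4, with log2 differences from -1.29 to 0.88 and a mean of -0.07. In the BPA cohort it was higher in the later set in each of the 3 such groups, by 0.54, 0.88 and 0.26. The authors had scaled each depot on its own, and levels are therefore given as rescaled reads, which put all libraries of a cohort on 1 scale. Levels of the T and BPA cohorts are not on a common scale with each other.

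MIR21 differed between the depots of the BPA cohort, where visceral fat held less than subcutaneous fat in 8 of 8 sheep. In subcutaneous fat of the controls MIR21 was at 1578, 1422, 3096 and 1806 rescaled reads in sheep 902, 908, 924 and 928. In visceral fat of the same sheep it was at 628, 260.1, 324 and 471 rescaled reads. The highest visceral control thus lay below the lowest subcutaneous one. Group means were 1976 ± 764 in subcutaneous and 421 ± 164 rescaled reads in visceral fat (SD, n = 4 each). MIR21 was 4.72-fold lower in visceral fat of the controls (log2 difference -2.24, SE 0.35, 95% confidence interval -2.96 to -1.52, limma adjusted p = 0.000225). In this comparison 30.1% of the 73 microRNAs tested were called, and MIR21 had the smallest p of them. Sheep by sheep, the visceral value lay below the subcutaneous one by log2 differences from -3.25 to -1.33. The later library set held 3 of the 4 subcutaneous and 1 of the 4 visceral control libraries. With a term for the set the difference was -1.96 (adjusted p = 0.000558).

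BPA sheep had the same order of depots. Subcutaneous fat of sheep 910, 918, 977 and 984 held 1603, 953, 1576 and 1762 rescaled reads of MIR21. Visceral fat of these sheep held 243, 405, 669 and 704. The groups did not overlap, with means of 1474 ± 357 and 505 ± 220 rescaled reads (SD, n = 4 each). MIR21 was 3.09-fold lower in visceral fat (log2 difference -1.63, SE 0.35, interval -2.35 to -0.90, limma adjusted p = 0.00095), where 46.6% of the 73 microRNAs were called and MIR21 ranked 11 by p. The exact permutation test over the libraries gave p = 0.0286 (two-sided) in each treatment group, the smallest that 4 against 4 can give. It shuffled libraries without regard to sheep, although both depots came from the same 4 sheep, so it does not take up the pairing. As a share of microRNA reads, MIR21 ran from 0.134% to 0.746% in the 8 subcutaneous libraries and from 0.0300% to 0.142% in the 8 visceral ones. On that scale the subcutaneous library of sheep 918 (0.134%, 95% Wilson interval 0.126% to 0.142%) overlapped the visceral libraries of sheep 977 (0.135%) and 984 (0.142%).

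**Figure D1:**
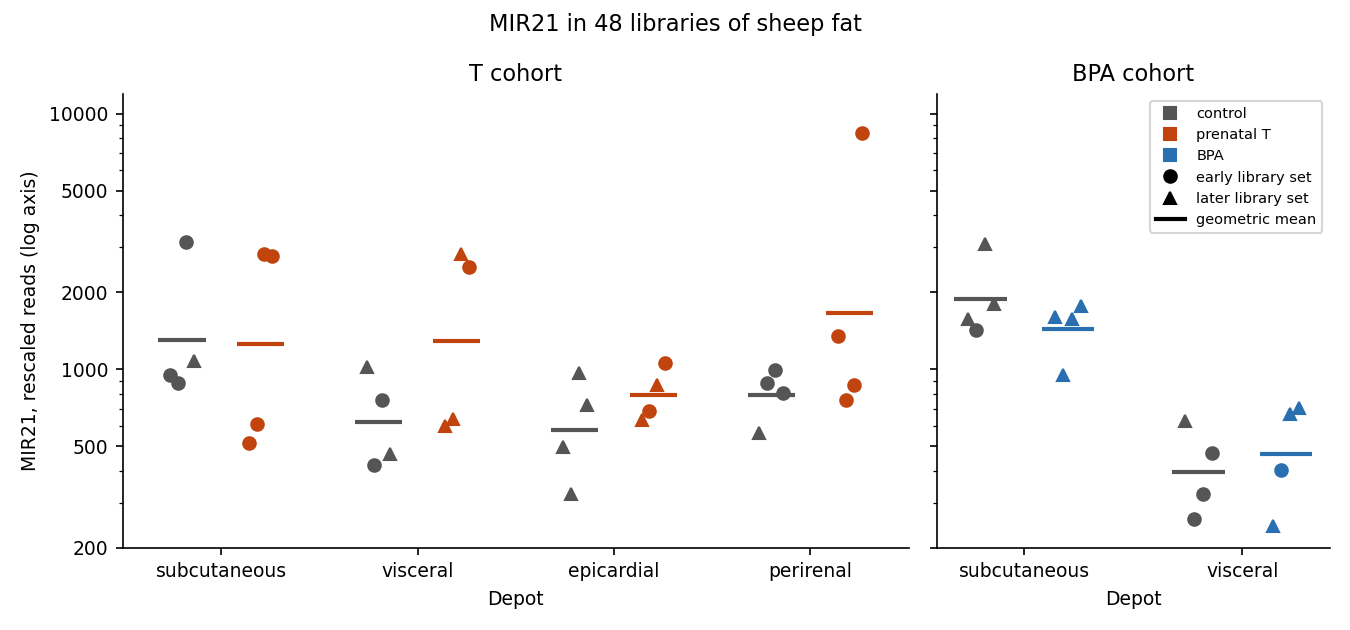
MIR21 in each library as rescaled reads on a log axis, by cohort, depot and treatment, with a bar at the geometric mean of each group of 4 and symbols for the early and later library set. The 2 cohorts are each on their own scale. In the BPA cohort all 8 visceral libraries lie below all 8 subcutaneous ones; in perirenal fat of the T cohort 1 prenatal T library stands at 8416.

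The cells that make up a depot are not resolved in these bulk libraries, so fewer cells that hold MIR21 and less MIR21 per cell cannot be told apart. Of the marker microRNAs listed for other cell types, the tables hold MIR150 (lymphocytes), MIR133 (striated muscle), MIR143 (smooth muscle), MIR200A, MIR200B and MIR200C (epithelium and mesothelium) and MIR10B, MIR199A and MIR218A (fibroblasts and stroma). Lists for myeloid cells, endothelium, red cells, liver and nerve had 0 members in the tables. In the BPA cohort the 3 epithelial and mesothelial microRNAs together took 0.00318% to 0.0157% of microRNA reads in subcutaneous controls and 0.0210% to 0.0720% in visceral controls. In BPA sheep these ranges were 0.00289% to 0.0332% and 0.0212% to 0.0430%. MIR200A was at 0 in 1 library of the cohort, and the other 2 were above 0 in all 16. The 3 stromal microRNAs took 2.48% to 5.88% in subcutaneous and 1.54% to 3.04% in visceral controls, and 2.19% to 3.48% and 1.03% to 2.68% in BPA sheep. MIR150 took 0.353% to 1.17% in subcutaneous and 0.441% to 0.514% in visceral controls. In BPA sheep it took 0.285% to 0.391% and 0.254% to 0.393%. MIR143 took 2.73% to 7.15% in subcutaneous and 2.48% to 4.31% in visceral controls. In BPA sheep its ranges were 2.58% to 4.03% and 1.75% to 7.52%. MIR133 took 0.0117% to 0.0323% and 0.00725% to 0.0389% in controls, and 0.0114% to 0.0300% and 0.00693% to 0.0700% in BPA sheep. The part of these cell types in the MIR21 difference was not tested.

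Of 16 microRNAs listed for inflammation, only 5 are in the tables, and these were tested. In visceral fat 0 of the 5 were higher and only MIR21 was lower, in controls and in BPA sheep alike. Over all microRNAs 30.1% and 46.6% were called in either direction. With 5 members this count is not set apart from that share. The lists were counted only in comparisons where MIR21 was called, so the call of MIR21 itself was fixed beforehand. In controls MIR150, a lymphocyte microRNA, differed by a log2 value of -0.45 (adjusted p = 0.240), MIR125B by -0.05, and the 2 copies of MIR181A by 0.16 and 0.18. The list median was -0.05 in controls and -0.31 in BPA sheep, beside -0.04 and -0.17 over all microRNAs tested.

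The profibrotic list has 12 members, of which 5 are in the tables. Of 4 profibrotic microRNAs tested, 3 were called in controls and 4 in BPA sheep, against 22 and 34 of all 73 microRNAs (30.1% and 46.6%). They were called in both directions. MIR21 is 1 of the 4, and its call in each comparison was fixed beforehand, so the counts are not read against that share. MIR433 (log2 difference 1.68, adjusted p = 0.00347) and MIR382 (1.45, adjusted p = 0.0108) were higher in visceral fat of the controls, and MIR21 was lower. MIR199A, a microRNA of activated fibroblasts, was at -0.50 (adjusted p = 0.127) in the controls and fell by 0.71 on the log2 scale (adjusted p = 0.0248) in visceral against subcutaneous fat of BPA sheep. MIR433 and MIR382 were also higher in visceral fat of BPA sheep, by 1.81 and 1.91. The list median was 0.47 in controls and 0.55 in BPA sheep, over 4 members that include MIR433 and MIR382. MIR376C, also in this list, did not reach the mean of 5 and was not tested.

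The antifibrotic list has 24 members, of which 19 are in the tables. Of 18 antifibrotic microRNAs tested, 1 was higher and 2 were lower in visceral fat of the controls, where 30.1% of all microRNAs were called. MIR29A, which represses collagen genes, differed by -0.69 (adjusted p = 0.0283), MIRLET7I by -0.68 (adjusted p = 0.00843) and MIRLET7B by 0.96 (adjusted p = 0.0190). In BPA sheep, where 46.6% of all microRNAs were called, 0 were higher and 3 were lower: MIR29A (-0.86, adjusted p = 0.00498), MIRLET7I (-0.49, adjusted p = 0.0314) and MIR152 (-0.68, adjusted p = 0.0325). The medians of this list were -0.19 and -0.31. Its members are not all separate: the copies MIR29B-1 and MIR29B-2 had identical values, and several members are of the let-7 family.

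The calls of MIR21, MIR433 and MIR382 held on the 3 scales of rescaled reads, deposited values and CPM (each library scaled to the same total of microRNA reads), in controls and in BPA sheep. In the controls those of MIRLET7B and MIRLET7I held as well. As CPM, MIR29A lost its calls, with an adjusted p of 0.0617 in controls and 0.0571 in BPA sheep, where MIR199A (0.173), MIRLET7I (0.263) and MIR152 (0.240) were not called either. On the deposited values MIR199A (-0.73, adjusted p = 0.0162) and MIR152 (-0.87, adjusted p = 0.00872) were called in controls as well, MIR125B was called in BPA sheep (-0.63, adjusted p = 0.0119), and the copies of MIR181A changed sign in controls (-0.061 and -0.044). The scale moved all microRNAs together. The median visceral minus subcutaneous difference was -0.04 rescaled, -0.24 as deposited and -0.016 as CPM in controls, and -0.17, -0.41 and 0.20 in BPA sheep. The microRNAs called higher and lower in visceral fat numbered 12 and 10 rescaled, 11 and 19 as deposited and 11 and 7 as CPM in controls, and 22 and 12, 22 and 25, and 23 and 5 in BPA sheep. MIR21 was at -2.46 and -2.27 on the deposited and CPM scales in controls, and at -1.86 and -1.44 in BPA sheep.

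In control sheep of the T cohort MIR21 was also at its highest mean in subcutaneous fat, but no depot difference passed the test. Subcutaneous fat of sheep 098, 131, 132 and 201 held 947, 884, 3155 and 1073 rescaled reads (mean 1514 ± 1096, SD, n = 4). Sheep 132 alone carried the high end, and without it the mean was 968 ± 96.1 (n = 3). Visceral fat of these sheep held 1021, 422, 755 and 467 rescaled reads (mean 666 ± 279). Epicardial fat held 496, 324, 963 and 724 (mean 627 ± 278). Perirenal fat held 564, 883, 993 and 808 (mean 812 ± 182). The ranges of the depots overlapped, apart from sheep 132 in subcutaneous fat. That library had a let-7 share of 42.2%, against 56.7%, 62.6% and 64.6% in subcutaneous fat of sheep 098, 131 and 201.

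Against subcutaneous fat, the log2 difference of MIR21 in these controls was -1.05 in visceral fat (SE 0.64, interval -2.35 to 0.24, adjusted p = 0.242; 31.2% of 80 microRNAs called). It was -1.16 in epicardial fat (interval -2.46 to 0.13, adjusted p = 0.131; 45% called) and -0.71 in perirenal fat (interval -2.0 to 0.59, adjusted p = 0.459; 22.5% called). Within sheep, MIR21 was lower than in subcutaneous fat in 3 of 4 controls in visceral, 4 of 4 in epicardial and 4 of 4 in perirenal fat. The SE of 0.64 was shared with the other groups of the cohort, prenatal T included. With only the groups compared, the limma adjusted p was 0.0199 in epicardial and 0.0842 in visceral fat. With sheep as a replicate block the epicardial difference passed the test (adjusted p = 0.0301) and the visceral one did not (adjusted p = 0.0708). As CPM the epicardial difference was -0.70 (adjusted p = 0.573). The later set held 4 of the 4 epicardial controls and 1 of the 4 subcutaneous ones, and with a term for the set the difference was -0.87 (adjusted p = 0.322). The other depots lay close together. Epicardial minus visceral was -0.11 (adjusted p = 0.905; 3.75% called), perirenal minus visceral 0.35 (adjusted p = 0.702; 5% called) and epicardial minus perirenal -0.46 (adjusted p = 0.691; 16.2% called).

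The visceral against subcutaneous difference of the controls was thus called in the BPA cohort and not in the T cohort. The difference between the cohorts was -1.19 (SE 0.57, interval -2.39 to 0.02, unadjusted p = 0.0527, limma adjusted p = 0.841) and was not called. That comparison called 0 of 75 microRNAs with limma, edgeR or DESeq2, and 2 had an unadjusted p under 0.05 with limma.

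**Figure D2:**
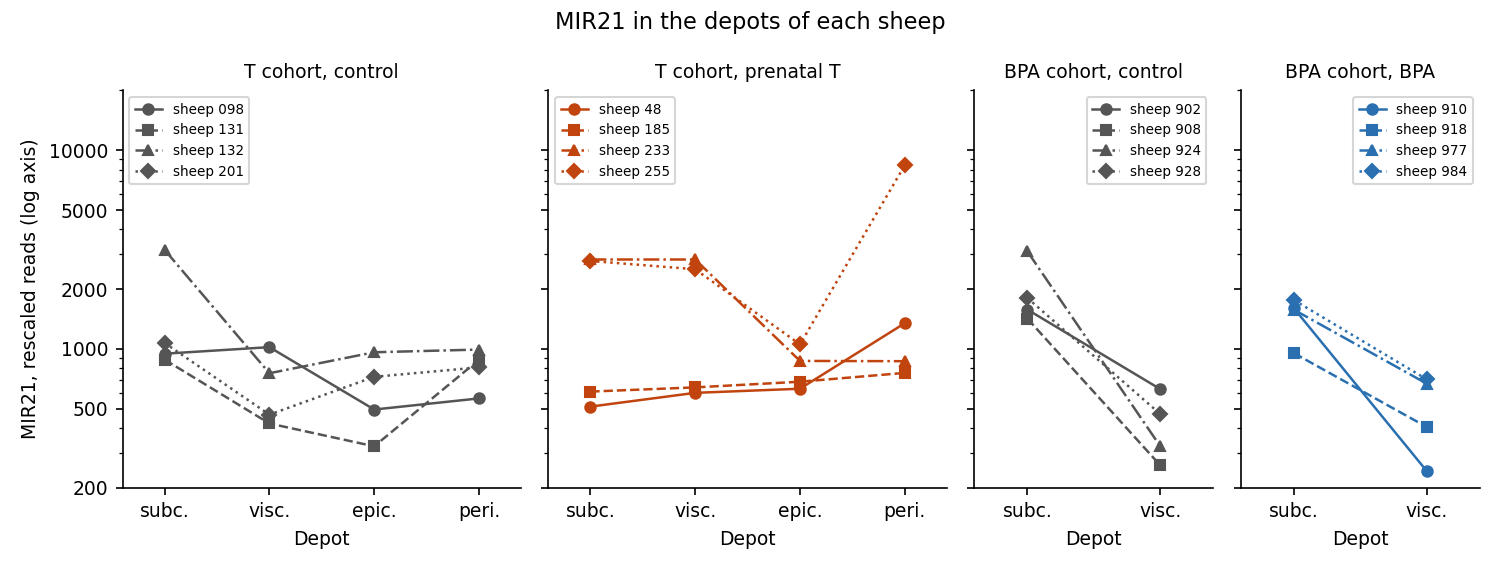
MIR21 in the depots of each sheep as rescaled reads on a log axis, with 1 line per sheep in 4 panels of cohort and treatment. Every line of the BPA cohort falls from subcutaneous to visceral fat, and sheep 233 and 255 run above the other prenatal T sheep in subcutaneous, visceral and epicardial fat.

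Prenatal T sheep split into a high and a low pair in subcutaneous and visceral fat. Sheep 48, 185, 233 and 255 held 513, 610.2, 2821 and 2774 rescaled reads of MIR21 in subcutaneous fat (mean 1680 ± 1292, SD, n = 4). In visceral fat the same sheep held 601, 641, 2821 and 2519 (mean 1645 ± 1189). Each sheep thus had nearly the same level in both depots, with visceral minus subcutaneous log2 differences from -0.14 to 0.23 (mean 0.04). Over the group, visceral against subcutaneous fat gave 0.04 (SE 0.64, adjusted p = 0.959), where 28.7% of 80 microRNAs were called. Sheep 233 and 255 also had lower let-7 shares than 48 and 185. In subcutaneous fat these were 43.2078% and 43.0372%, against 61.7292% and 54.9464%. In visceral fat they were 44.0035% and 35.1231%, against 70.9612% and 72.1558%. Their stromal microRNA shares were higher, at 5.92% and 5.58% against 2.89% and 3.18% in subcutaneous fat. In visceral fat these were 5.11% and 5.93% against 1.04% and 1.19%. The part of these shifts in the MIR21 split was not tested.

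Epicardial fat of the prenatal T sheep held 631, 684, 871 and 1055 rescaled reads (mean 810.1 ± 193). Sheep 233 and 255 were the highest there too, with a smaller spread over the group. Perirenal fat held 1348.5, 758, 868 and 8416 (mean 2848 ± 3721), and the mean rested on sheep 255, being 991 ± 314 (n = 3) without it. Against subcutaneous fat, epicardial fat differed by -0.66 (adjusted p = 0.420; 38.8% of microRNAs called) and perirenal fat by 0.40 (adjusted p = 0.665; 35% called). The perirenal value was -0.38 without the library of sheep 255. Epicardial minus visceral was -0.70 (adjusted p = 0.757; 2.5% called) and epicardial minus perirenal -1.06 (adjusted p = 0.447; 6.25% called), and the latter was -0.28 without that library. Perirenal minus visceral was 0.36 (adjusted p = 0.763; 10% called), and -0.42 without that library.

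Ordered by mean log2 level, the T cohort ran from perirenal prenatal T (10.69, SD 1.6) through subcutaneous control (10.34, SD 0.86), visceral prenatal T (10.33, SD 1.22) and subcutaneous prenatal T (10.29, SD 1.34) to perirenal control (9.64, SD 0.35). Epicardial prenatal T (9.63, SD 0.34), visceral control (9.29, SD 0.60) and epicardial control (9.18, SD 0.68) followed. Each step between neighbours was smaller than the larger of their SDs. In the BPA cohort the order was subcutaneous control (10.88, SD 0.50), subcutaneous BPA (10.49, SD 0.40), visceral BPA (8.86, SD 0.72) and visceral control (8.64, SD 0.56), and only the step between the depots exceeded the larger of the neighbours' SDs.

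Prenatal testosterone gave no called difference in MIR21 in any of the 4 depots. As deposited, within each depot, the log2 difference of prenatal T from control was -0.15 in subcutaneous fat (SE 0.59, interval -1.43 to 1.12, limma adjusted p = 0.997). In visceral fat it was 1.0 (SE 0.55, interval -0.20 to 2.20, adjusted p = 0.477). Epicardial fat gave 0.68 (SE 0.32, interval -0.03 to 1.38, adjusted p = 0.199). Perirenal fat gave 1.0 (SE 0.63, interval -0.40 to 2.39, adjusted p = 0.441), and 0.25 without sheep 255. Prenatal T and control values overlapped in each depot, and exact permutation tests of MIR21 alone gave p of 0.886, 0.229, 0.114 and 0.229 in this order of depots. All 4 intervals include 0.

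The limma fits on deposited values called 0% of the microRNAs in each of these 4 comparisons, 0 of 71, 76, 85 and 86. At an unadjusted p under 0.05 there were 2, 4, 20 and 7, edgeR called 2, 0, 0 and 0, and DESeq2 called 0, 1, 10 and 1. On rescaled reads limma called 2 of 71 higher in subcutaneous and 4 of 81 lower in epicardial fat. As CPM it called 2 of 73 higher in subcutaneous and 1 of 90 higher in epicardial fat. MIR21 was not among them, and visceral and perirenal fat had 0 on both scales. A difference of the effect on MIR21 between depots was not called in a test of the 3 interaction terms (F = 0.698, adjusted p = 0.939), where limma and edgeR called 0 of 80 microRNAs and 2 had an unadjusted p under 0.05. The interaction of visceral against subcutaneous fat was 1.09 (SE 0.90, adjusted p = 0.989).

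BPA gave no called difference either. The log2 difference of BPA from control was -0.34 in subcutaneous fat (SE 0.28, interval -0.95 to 0.27, adjusted p = 0.653, exact permutation p = 0.429). In visceral fat it was 0.27 (SE 0.36, interval -0.50 to 1.03, adjusted p = 0.840, exact permutation p = 0.6). BPA and control values overlapped in both depots. The limma fits called 0% of 71 and of 76 microRNAs, edgeR and DESeq2 called 0, and 6 and 4 had an unadjusted p under 0.05 with limma. Visceral minus subcutaneous, the BPA effect differed by 0.61 (SE 0.49, interval -0.41 to 1.64, adjusted p = 0.827). Here 0 of 73 microRNAs were called with limma, edgeR or DESeq2, and 1 had an unadjusted p under 0.05.

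**Figure D3:**
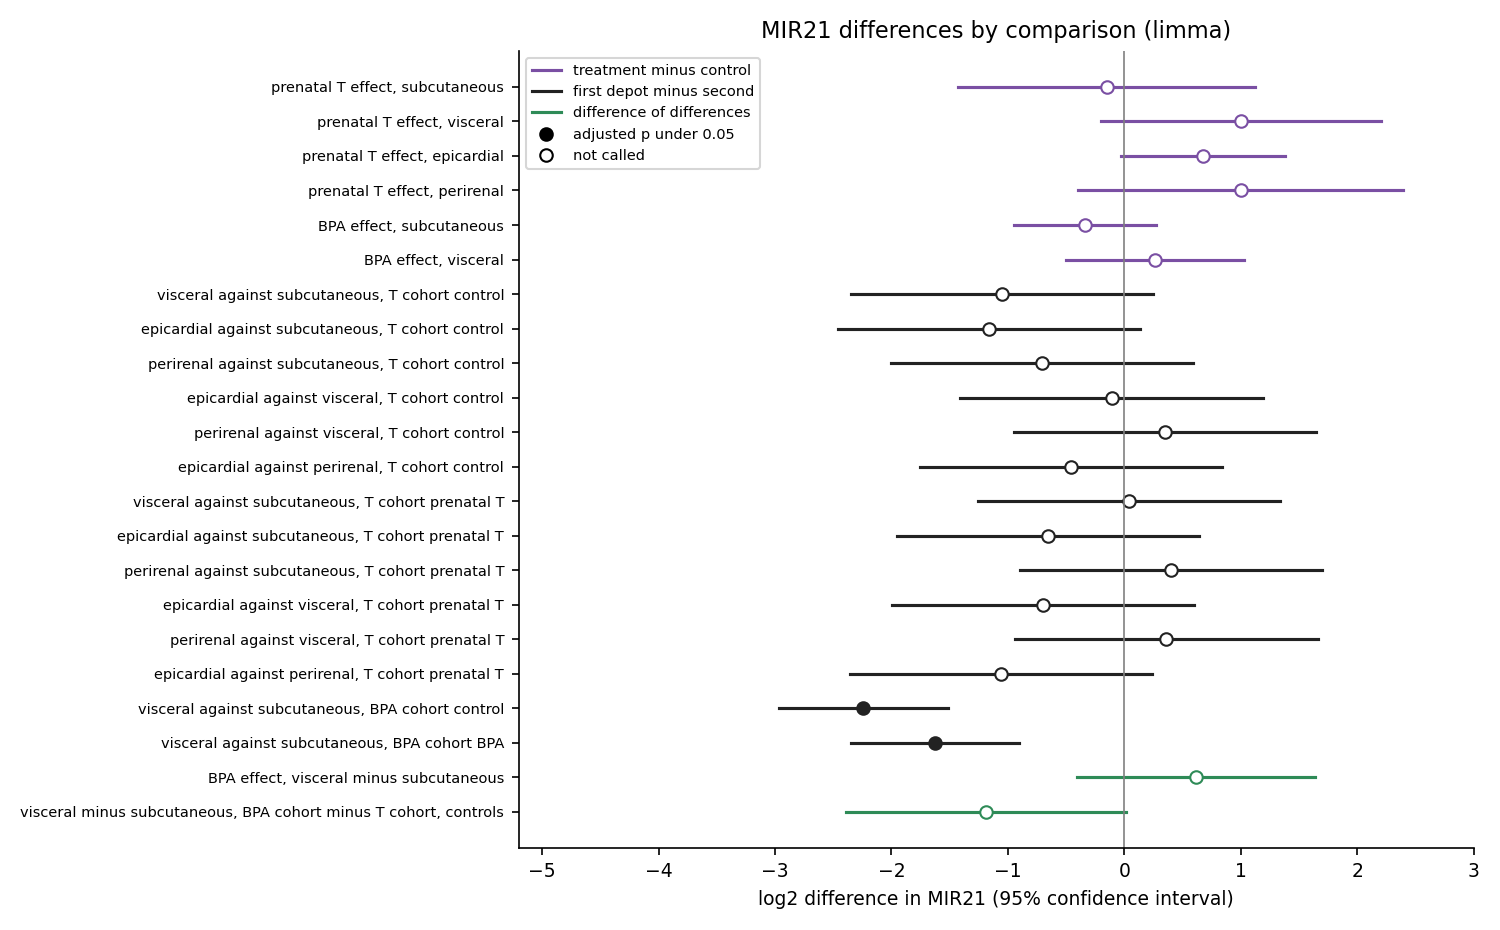
Log2 differences in MIR21 from the limma fits with 95% confidence intervals, for treatments within depots, depots within treatment groups, and differences between such differences. The 2 filled points are the visceral against subcutaneous comparisons of the BPA cohort, at -2.24 and -1.63, and the interval of each of the other comparisons includes 0.

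Some sheep of a group were high in several depots. Sheep 233 and 255 had the 2 highest values of the prenatal T sheep in subcutaneous, visceral and epicardial fat, and sheep 132 was the highest control in subcutaneous, epicardial and perirenal fat. Deviations of MIR21 from the group mean correlated between subcutaneous and epicardial fat of the same 8 sheep (Pearson r = 0.74, exact permutation p = 0.0243, adjusted 0.170 over 7 relations). Spearman's rho was 0.81 (exact permutation p = 0.0139, adjusted 0.0972), and r was 0.63 without the 2 sheep farthest from the median. Between subcutaneous and visceral fat r was 0.82 (exact permutation p = 0.141) and rho 0.81 (p = 0.108), with r = 0.83 without the 2 farthest sheep. In the BPA cohort subcutaneous and visceral fat gave r = 0.04 (exact permutation p = 0.924) and rho = -0.024 (p = 0.983). None of the 7 relations passed after adjustment. Averaged over its 4 depots, MIR21 was at a log2 level of 10.24 ± 0.98 in prenatal T sheep and 9.61 ± 0.47 in controls (SD, n = 4 each, difference 0.63, exact permutation p = 0.314). Without the perirenal library of sheep 255 the prenatal T level was 10.10 ± 0.78 (difference 0.49, exact permutation p = 0.314).

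The perirenal library of prenatal T sheep 255 stood apart in MIR21 and in other microRNAs. MIR21 made up 2.77% of its microRNA reads (95% Wilson interval 2.74% to 2.80%), against 0.110% to 0.231% in the other 3 perirenal prenatal T libraries. It was 8.75-fold above the mean of these 3 on the log scale, a log2 difference of 3.13 that ranked 4 of 80 microRNAs by size, beside a median absolute difference of 1.10. MIR218A (3.23), MIR200A (3.16) and MIR3955 (3.14) were higher by more, and MIR150 (-3.07), MIR25 (-2.74), MIRLET7A (-2.68) and MIRLET7D (-2.42) were lower. MIR200A stood at 17.3 against 0.76, 0.62 and 2.02 rescaled reads, and MIR3955 at 22.8 against 1.52, 1.24 and 2.52. Both were near the floor in the other 3 libraries, so their differences depend on the 1 added to each value. The perirenal library of sheep 255 had the lowest let-7 share of the 48 (25.0%) and the lowest share of MIR150 (0.0879%). It had the highest shares of the stromal microRNAs (11.6%) and of MIR143 (17.5%). The part of these shifts in its MIR21 level was not tested.

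The microRNAs whose levels ran most like MIR21 over the libraries, out of 72 compared, were MIR17, MIR374A, MIR30B, MIR152 and MIR199A. Likeness was the Pearson r of log2 levels, ranked by the smaller of the values over 32 T cohort and 16 BPA cohort libraries. MIR17, a microRNA of a cluster that promotes proliferation, had r = 0.69 over T cohort and 0.85 over BPA cohort libraries. MIR374A had 0.62 and 0.81, and MIR30B, of a family known to promote adipocyte differentiation, 0.59 and 0.63. MIR152 had 0.56 and 0.57, and MIR199A 0.74 and 0.55. MIR17 was scarce: its group means in the BPA cohort were 67.3 and 57.2 rescaled reads in subcutaneous and 28.7 and 34.2 in visceral fat of control and BPA sheep. MIR374A was scarcer there, with means of 33.6 and 36.2 in subcutaneous and 17.7 and 22.2 in visceral fat.

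Running against MIR21 were MIRLET7B (r = -0.64 over T cohort and -0.73 over BPA cohort libraries), MIR25 (-0.74 and -0.64) and MIRLET7D (-0.74 and -0.62). Without the perirenal library of sheep 255, r in the T cohort was 0.73 for MIR17, 0.48 for MIR30B, -0.51 for MIRLET7B and -0.59 for MIR25. The median r of the 72 microRNAs was near 0, at -0.006 over T cohort and -0.034 over BPA cohort libraries. These values are descriptions: the libraries share sheep, depots, depth and the scaling, and let-7 members make up much of each library.

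**Figure D4:**
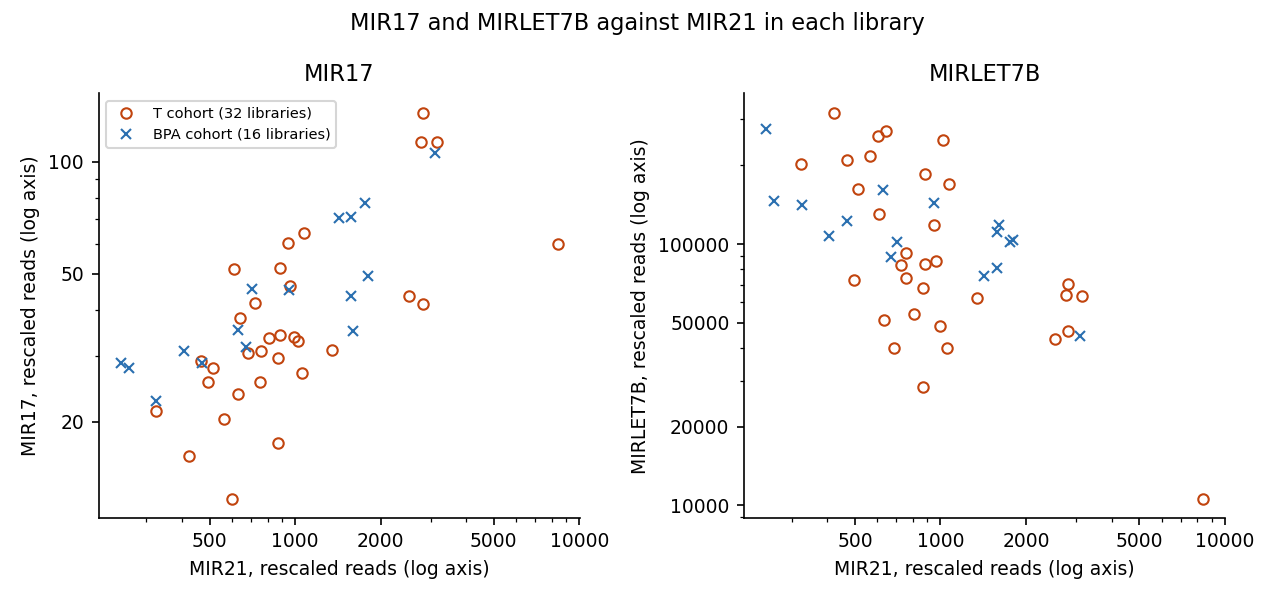
Rescaled reads of MIR17 (left) and MIRLET7B (right) against those of MIR21 on log axes, 1 point per library, with circles for the T cohort and crosses for the BPA cohort, each on its own scale. MIR17 runs up with MIR21 (r = 0.69 and 0.85) and MIRLET7B runs down (r = -0.64 and -0.73); the point at 8416 is the perirenal library of sheep 255.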

How the data were processed

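Small RNA libraries were made with a NEBNext kit from total RNA per the labels' protocols; the submitters' processing notes name featureCounts 1.6.1, STAR 2.6.0c and cutadapt 3.2. The deposited values are a signal, reads divided by a size factor that the authors set within each depot (equal to median-of-ratios factors); whole reads were recovered from 100% of positive values (tolerance 1e-05). For depots, reads were rescaled by the median ratio over the cohort (69 microRNAs above 0 in every T library, 74 in the BPA cohort). MicroRNAs with a mean of at least 5 were fitted as log2(value + 1), which understates changes of low features, with limma 3.58.1 (R 4.3.3, trend) and Benjamini-Hochberg adjustment per comparison; an adjusted p under 0.05 was called. Treatment used deposited values of 1 depot (8 libraries); depots and interactions used 1 fit per cohort. edgeR 4.0.16, DESeq2 1.42.0, scalings, thresholds, library sets, a sheep block and left-out replicates were alternatives. Fits were tested on simulated data. Wilson intervals cover counting error within 1 library only, and not the spread between libraries or sheep. They treat each read as separate, although reads carry no molecular identifiers to tell copies of 1 molecule apart.

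Per the labels, each sheep gave every depot of its cohort. The median correlation of deviations from group means was 0.15 over 48 same-sheep library pairs of the T cohort (-0.04 between sheep) and 0.18 over 8 pairs of the BPA cohort (0.01 between sheep). MIR21 and the lists were chosen with earlier results of these data known. Genes named were the 5 most and 3 least alike by correlation and called list members; MIR150, MIR125B and MIR181A (not called) and the genes of the perirenal library of sheep 255 were named after their values were seen.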

Additional observations from a re-analysis of the deposited data

Results flagged for a closer look

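Of 12 groups of 4 libraries, 2 had a sample far from the others in rescaled MIR21 reads. Chance alone marks about 1 in 20 groups if values are normally distributed, which was not checked for these reads. The rule was applied to reads and not to the log2 values used in the fits. In subcutaneous fat of T cohort controls, sheep 132 was at 3155 and the nearest sheep at 1073, a gap of 0.917 of the group's range (above Dixon's critical value). In perirenal fat of prenatal T sheep, sheep 255 was at 8416 and the nearest at 1348.5, a gap of 0.923 of the range. As log2 values sheep 255 was at 13.04, the nearest at 10.40 and the lowest at 9.57, where the gap is a smaller part of the range.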

How the results depend on the processing

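The 23 results were recomputed under 430 alternatives; 401 kept direction and side of the threshold, 0 lost a call, 7 gained one and 22 changed sign. The 2 called differences of the BPA cohort kept their calls in each alternative run, with log2 values of -2.54 to -1.90 (controls) and -1.76 to -1.26 (BPA sheep) when 1 replicate was left out. On the deposited values, which the authors scaled depot by depot, visceral minus subcutaneous was -1.75 and perirenal minus visceral 1.84 in controls and 1.83 in prenatal T sheep, all past the threshold. Signs changed there for perirenal minus subcutaneous (0.090) and epicardial minus visceral (0.93) in controls, and for visceral minus subcutaneous (-0.60), epicardial minus subcutaneous (0.016) and epicardial minus visceral (0.61) in prenatal T sheep. Epicardial minus visceral in controls was also 0.48 as CPM and as RPM over all 4 RNA classes, 0.083 with a term for the library set, and -0.36 to 0.20 with 1 replicate left out. Prenatal T in subcutaneous fat was 0.12 as CPM, 0.13 as RPM, 0.13 with edgeR, and -0.55 to 0.31 with 1 replicate left out. BPA in visceral fat was -0.011 with the set term. In prenatal T sheep, visceral minus subcutaneous was -0.31 with edgeR, -0.029 with DESeq2 and -0.023 to 0.10 with 1 replicate left out, and epicardial minus perirenal passed with DESeq2 (-1.81), while the limma value was -0.28 without the perirenal library of sheep 255. Perirenal minus visceral was -0.098 to 1.05 with 1 replicate left out; without that library, an alternative chosen after seeing the data, it was -0.42 and perirenal minus subcutaneous -0.38. Epicardial minus subcutaneous in controls passed with edgeR (-1.52), with only the groups compared (-1.16) and with the replicate block of sheep (-1.16); the block changed no other call. DESeq2 gave no adjusted p for prenatal T in perirenal fat and was not run for the 3 interaction terms together. The cause of these changes was not tested. With 4 libraries a group, exact permutation tests that shuffle libraries freely between groups cannot go below p = 0.0286. Between depots these tests left out the pairing by sheep.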
